A study of Mus musculus with 4 samples.

Results

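The Hedgehog genes described here are the ligands Shh and Ihh, the receptor Ptch1, the co-receptor Boc, the signal transducer Smo, the ligand-binding antagonist Hhip and the transcription factors Gli1, Gli2 and Gli3. They were chosen by name, as every probe of the arrays annotated to 1 of these 9 genes, which gave 13 probes. Of these, 12 passed the filter on dim probes, and all 9 genes were among the 21518 genes tested. The RNA came from ureters of NMRI mouse embryos at stage E15.5. In the conditional knockout embryos, called cKO here, the genotype was Pax2-cre/+; Trp63(dN-flox/dN-flox), in which the cre transgene recombines floxed alleles of the ΔN form of p63. The control genotype was Trp63(dN-flox/?), with no cre listed, and loss of ΔNp63 and the presence of the cre transgene therefore cannot be told apart. Each of 4 arrays held 1 cKO and 1 control RNA of the same sex in different dyes (replicates 1 and 2 female, 3 and 4 male), and no label says whether an RNA came from 1 embryo or a pool. The limma p-values and intervals rest on the spread between these 4 pairs, pooled with the spread of all genes tested. The pooled part entered with a weight of 4.07 degrees of freedom.

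Hedgehog ligands are secreted proteins that bind Ptch1 on receiving cells. Ligand binding relieves the block that Ptch1 places on Smo, and the signal ends on the Gli transcription factors, with Gli1, Ptch1 and Hhip as widely used transcriptional readouts. In the developing ureter the ligand is made by the epithelium and received by the surrounding mesenchyme, where the pathway is known for its role in mesenchymal growth and smooth muscle formation. RNA of whole ureters does not separate these layers, so the split into epithelial ligands and mesenchymal receptors and targets is background, and a change in the number of cells of a type and a change in RNA per cell cannot be told apart.

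The median spot signal of an array lay between 382 and 416 (green) or 519 and 617 (red), and no gene spot was saturated. All levels below are normalised log2 intensities of 1 probe, and all ratios are log2 ratios of cKO over control on 1 array, with SDs over 4 arrays. No gene's level was compared with another gene's. For Trp63, the targeted gene, replicates 1 to 4 gave log2 ratios of -1.39, -1.18, -1.30 and -1.62, averaging -1.37 ± 0.18 (SD, n = 4, limma adjusted p = 0.00327). Whether its probe lies in the floxed part of the gene was not analysed here. All 7 basal urothelial markers tested, among them Krt5 at -1.87 ± 0.42, were lower in the cKO RNA. Each had a limma adjusted p under 0.05 in that direction, as 0.697% of all genes tested had.

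Ihh was the only one of the 9 genes that passed the test at an adjusted p under 0.05, and it was higher in the cKO ureters. Over all genes tested, 0.497% were called higher and 0.697% lower. A further 3 members, Ptch1, Hhip and Gli1, were above 0 on all 4 arrays without passing the test on their representative probes. The remaining 5 were Shh, Smo, Boc, Gli2 and Gli3, with mean log2 ratios between -0.12 and 0.16. The median log2 ratio of the 9 genes was 0.16, against -0.00024 over all genes tested.

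Ihh, a ligand best known from cartilage and gut epithelium, had control levels of 11.41, 11.21, 10.65 and 10.59 in replicates 1 to 4. Its cKO levels were 13.02, 12.63, 12.75 and 12.63. The lowest cKO level lay above the highest control level, and the 2 male controls were the lowest of the 8 RNAs. The log2 ratios were 1.61, 1.42, 2.10 and 2.04, with a mean of 1.79 ± 0.33 (SD, n = 4), which is 3.46-fold higher in cKO (95% limma interval of the log2 ratio 1.47 to 2.12). The limma adjusted p was 0.00421, and Ihh ranked 6 of 21518 genes from the highest ratio. Its 1 probe lies at chr1:74991906-74991965 on the minus strand of mm9, and the file names its gene. The call was lost with no filter on dim probes (log2 ratio 1.79, adjusted p = 0.0598) and in the deposited value table with its zeros kept (1.82, adjusted p = 0.271), and it held with each replicate left out in turn (1.64 to 1.95).

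The Ihh ratio averaged 1.51 on the 2 female and 2.07 on the 2 male arrays. The female minus male coefficient was -0.56, with an unadjusted limma p of 0.0391 and an adjusted p of 1.00, so the difference did not pass the test. Of all genes, 0.0697% passed it, and of the 9 Hedgehog genes 0 did. The fit with sex has 1 residual degree of freedom and took its spread wholly from the other genes. No gene passed the test of the dye effect (0% of 21518), and the smallest adjusted p among the 9 genes was 1.00.

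Shh, the other ligand measured and the one best known from the urinary tract epithelium, had control levels of 9.78, 9.57, 9.89 and 9.78. Its cKO levels of 10.09, 9.72, 10.13 and 9.69 overlapped them. The log2 ratios were 0.31, 0.16, 0.24 and -0.085, a mean of 0.16 ± 0.17 (SD, n = 4, limma adjusted p = 0.802), above 0 on 3 of the 4 arrays. The 95% limma interval ran from -0.035 to 0.35, so it left out a change of the size measured for Ihh. The Shh probe lies at chr5:28783983-28784042 on the minus strand of mm9.

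**Figure D1:**
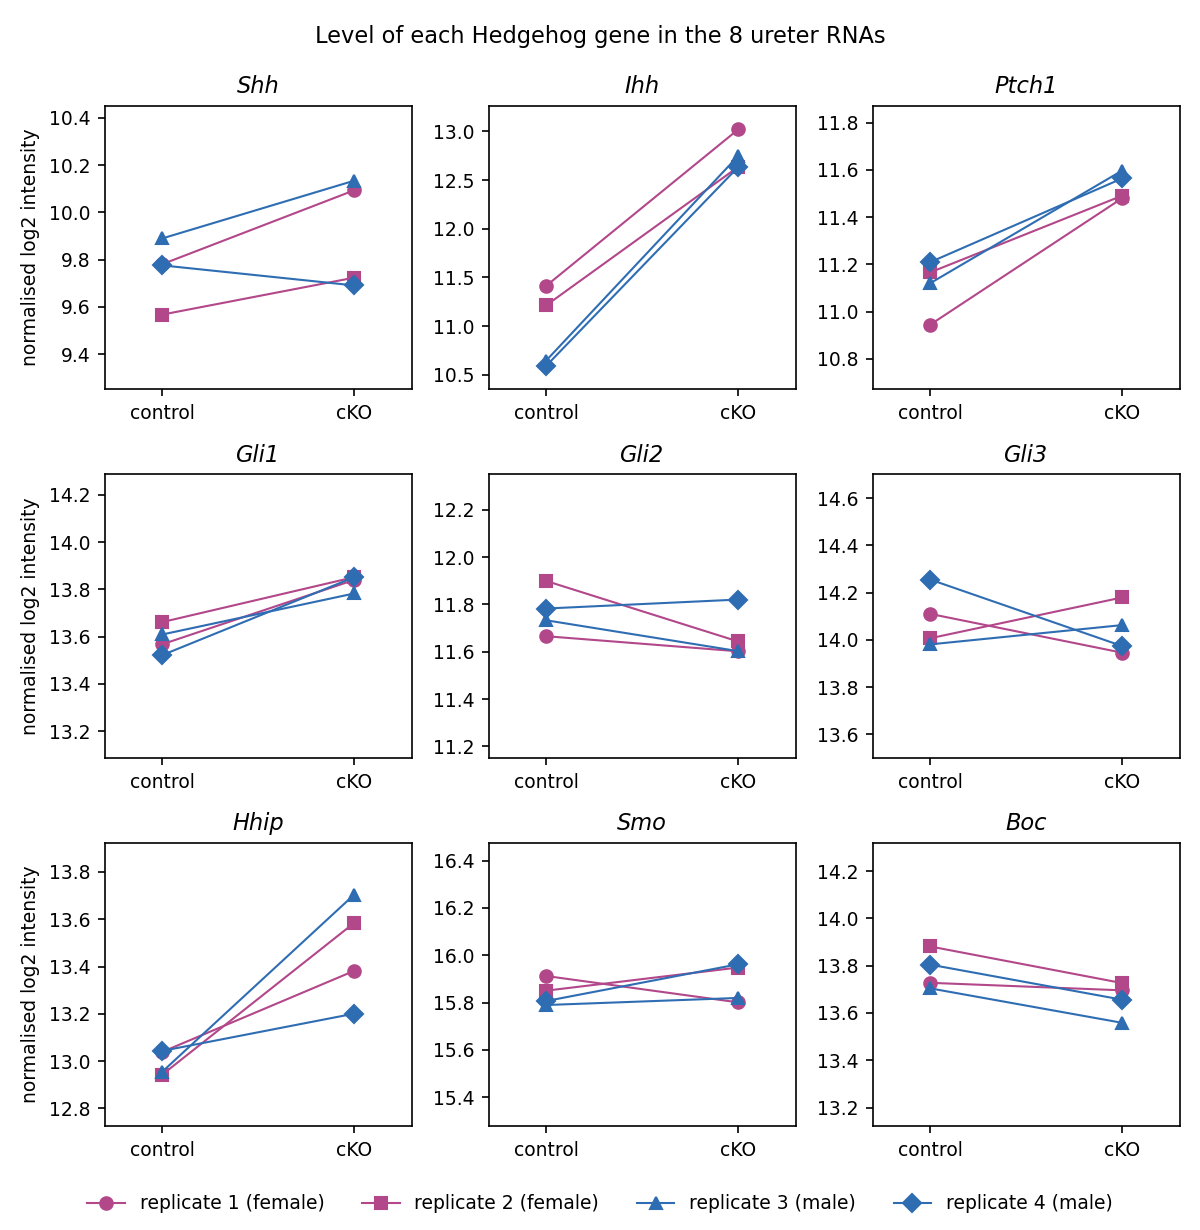
Normalised log2 intensity of the representative probe of each of the 9 Hedgehog genes (vertical axes) in the 4 control and 4 cKO RNAs. Lines join the RNAs of 1 array. The 4 cKO levels of Ihh, between 12.63 and 13.02, lie above all control levels, which reach 11.41, and those of Shh overlap the controls.

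Ptch1, the Hedgehog receptor and itself induced by the pathway, had control levels of 10.94, 11.17, 11.12 and 11.21 and cKO levels of 11.48, 11.49, 11.60 and 11.56. All 4 cKO levels lay above all 4 control levels. Its log2 ratios of 0.54, 0.32, 0.48 and 0.35 gave a mean of 0.42 ± 0.10 (SD, n = 4), which is 1.34-fold higher (95% limma interval 0.25 to 0.59), and the limma adjusted p of 0.0654 missed the threshold. Its representative probe lies at chr13:63610298-63610357 on the minus strand of mm9. The other Ptch1 probe, at chr13:63612879-63612938, had ratios of 0.52, 0.88, 0.64 and 0.34, a mean of 0.59 ± 0.23 (SD, n = 4, limma adjusted p = 0.086 among all kept probes). The mean of both probes passed (log2 ratio 0.51, adjusted p = 0.0485), as did the fit without a dye term (adjusted p = 0.0250), the fit with no replicate block (0.0184) and the fits without replicate 2 (0.0116) or replicate 4 (0.0119). With nearly the same ratio, Ptch1 did not pass without replicate 1 (0.41, adjusted p = 0.469) or replicate 3 (0.44, adjusted p = 0.434). In these last fits the pooled spread had infinite weight, so the spread of a gene's own ratios did not enter. Without replicate 2 or replicate 4 the pooled spread had a weight of 8.40 degrees of freedom. The calls with different replicates left out are therefore not on the same footing. The share of all genes called in either direction was itself 1.68%, 4.35%, 1.32% and 7.44% without replicates 1, 2, 3 and 4, against 1.19% with all arrays.

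Hhip, a membrane protein that binds Hedgehog ligands and limits their range and is induced by the pathway, had control levels of 13.04, 12.94, 12.95 and 13.04. Its cKO levels were 13.38, 13.58, 13.70 and 13.20, all above the controls. The ratios were 0.34, 0.64, 0.75 and 0.16, a mean of 0.47 ± 0.27 (SD, n = 4, limma adjusted p = 0.201, 95% limma interval 0.19 to 0.75), which is 1.39-fold. This probe lies at chr8:82494280-82494339 on the minus strand of mm9. The other Hhip probe, at chr8:82490729-82490788, had log2 ratios of 0.56, 0.91, 0.90 and 0.70, a mean of 0.77 ± 0.17 (SD, n = 4), higher on all 4 arrays. Fitted by itself among all kept probes it passed with a limma adjusted p of 0.0216, where 0.433% of kept probes were called higher. The 2 Hhip probes thus gave different calls, and the ratios of the representative one had the larger spread over arrays. The representative probe passed without replicate 1 (log2 ratio 0.57, adjusted p = 0.0468), without replicate 4 (0.59, adjusted p = 0.00601) and with a sex term (adjusted p = 0.0220), and did not pass without replicate 2 (0.35, adjusted p = 0.0837) or replicate 3 (0.37, adjusted p = 0.877).

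**Figure D2:**
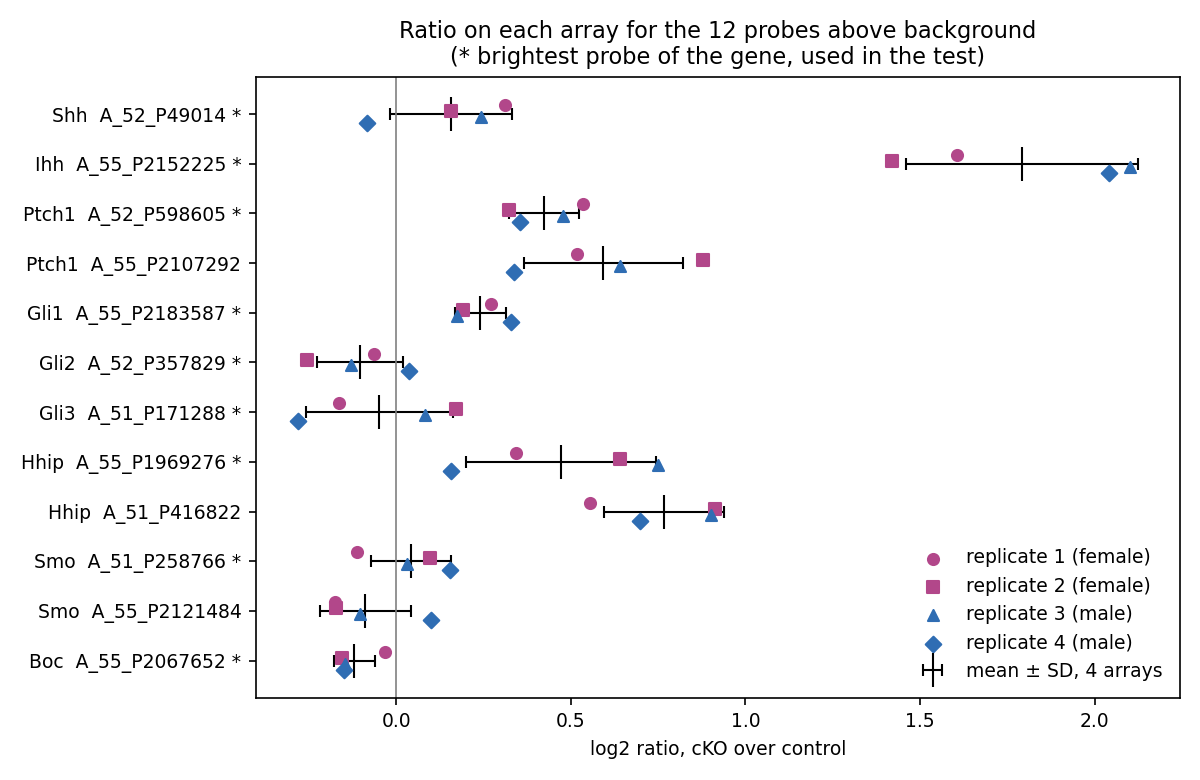
Log2 ratio of cKO over control (horizontal axis) for each kept probe of the 9 genes on the 4 arrays, with the mean and SD. The other Hhip probe averages 0.77 and the representative one 0.47, and both Ptch1 probes lie above 0 on all 4 arrays.

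The 250 bases before the annotated starts of Ihh and of Ptch1 and Hhip, which had the higher ratios among the 3 targets Ptch1, Hhip and Gli1, are shown as the regulatory sequence next to these genes. They are from RefSeq (GRCm38.p6), 5′ to 3′ on the gene's strand, and lie at chr1:74951673-74951922, chr13:63565736-63565985 and chr8:80058009-80058258, each on the minus strand. Capitals mark GC boxes (GGGCGG on either strand).
Ihh: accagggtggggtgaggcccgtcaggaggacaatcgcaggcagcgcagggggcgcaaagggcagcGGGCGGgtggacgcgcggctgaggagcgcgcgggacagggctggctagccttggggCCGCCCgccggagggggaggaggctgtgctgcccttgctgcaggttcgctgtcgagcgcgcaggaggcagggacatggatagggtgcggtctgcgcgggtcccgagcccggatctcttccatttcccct
Ptch1: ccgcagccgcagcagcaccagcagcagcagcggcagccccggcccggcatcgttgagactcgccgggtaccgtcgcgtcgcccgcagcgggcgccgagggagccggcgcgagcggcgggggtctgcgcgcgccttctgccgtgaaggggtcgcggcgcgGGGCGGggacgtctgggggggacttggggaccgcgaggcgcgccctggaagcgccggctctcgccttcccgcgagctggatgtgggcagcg
Hhip: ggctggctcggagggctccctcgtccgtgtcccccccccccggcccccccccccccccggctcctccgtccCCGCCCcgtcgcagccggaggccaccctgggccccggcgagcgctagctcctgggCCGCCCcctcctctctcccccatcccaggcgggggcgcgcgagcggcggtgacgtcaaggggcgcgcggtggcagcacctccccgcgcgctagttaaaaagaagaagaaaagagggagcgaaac

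Promoter windows of 300 bases, from 250 before to 50 after the start, were in the RefSeq table for 6 of the 9 genes. Their GC content ran from 67.3% to 76.3%, against a median of 52.7% over 32851 promoters, and was 72.7% for Ihh, 76.3% for Ptch1 and 73.7% for Hhip. In the order tried, 8 patterns were searched first on both strands: the GLI site GACCACCCA, its core CCACCCA, 3 patterns of paired p53 family half-sites (a short spacer, a long spacer and a looser form of the first), TGTTTAC (forkhead), CAAAGTCCA (HNF4) and AGATAA (a site of GATA factors). The core is contained in the GLI site, and the looser p53 pattern takes in the first. None of the 8 occurred in any of the 6 windows. Of all promoters, 0.253% hold the GLI site, 9.3% its core, 0.712%, 0.566% and 11.5% the p53 patterns in the order given, 3.65% the forkhead, 0.475% the HNF4 and 11.2% the GATA pattern. The GC box GGGCGG and the TATA box TATAAA were added after those 8 gave no match. A GC box occurred in 5 of the 6 windows, all but Smo, and in 35.7% of all promoters, which are on the whole less rich in G and C. A TATA box occurred in 0 of 6, and in 13.6% of all. These are matches of letters and absences of letters in these windows only.

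Gli1, the activator whose own transcription reports pathway activity, had control levels of 13.57, 13.66, 13.61 and 13.52 and cKO levels of 13.84, 13.85, 13.78 and 13.85. The groups did not overlap. The log2 ratios were 0.27, 0.19, 0.17 and 0.33, a mean of 0.24 ± 0.073 (SD, n = 4, limma adjusted p = 0.370, 95% limma interval 0.061 to 0.42), 1.18-fold and higher on all 4 arrays. This probe lies at chr10:126766967-126767026 on the minus strand of mm9, and the other Gli1 probe was not well above background in any of the 8 RNAs. Ihh, Ptch1, Hhip and Gli1 were thus 4 of 9 genes with ratios above 0 on all arrays, which 7.69% of all genes were, and 4 of 9 with all cKO levels above all control levels, which 3.05% of all genes were; 0 of 9 had all cKO levels below all control levels, as 3.32% of all genes did. These 4 were also the ones with an unadjusted limma p under 0.05 in the higher direction, which 3.73% of all genes had, and 0 of 9 had one in the lower direction (4.31% of all genes).

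Gli2 and Gli3, the transcription factors that act upstream of Gli1 and that, Gli3 above all, are processed to repressors without a signal, did not pass the test. Gli2 had log2 ratios of -0.064, -0.26, -0.13 and 0.038 (mean -0.10 ± 0.12, SD, n = 4, limma adjusted p = 1.00, 95% limma interval -0.30 to 0.098). Gli3 had ratios of -0.16, 0.17, 0.082 and -0.28 (mean -0.048 ± 0.21, SD, n = 4, adjusted p = 1.00, interval -0.30 to 0.20), and its mean turned to 0.0067 with median centring. The arrays of neither gene were all of 1 sign. Their probes lie on mm9 at chr1:120731255-120731314 on the minus strand and at chr13:15821502-15821561 on the plus strand.

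Smo, the transducer that Ptch1 holds in check, had log2 ratios of -0.11, 0.098, 0.030 and 0.16, a mean of 0.043 ± 0.12 (SD, n = 4, limma adjusted p = 1.00, 95% limma interval -0.14 to 0.22). Its other probe averaged -0.088 ± 0.13, so the sign depended on the probe. Boc, a cell-surface protein that binds ligand together with Ptch1, had ratios of -0.032, -0.15, -0.15 and -0.15. It averaged -0.12 ± 0.059 (SD, n = 4, limma adjusted p = 0.918, interval -0.30 to 0.055), below 0 on all 4 arrays, as 7.65% of all genes were, and its cKO and control levels overlapped. The Smo probe lies at chr6:29711225-29711284 on the plus strand and the Boc probe at chr16:44485665-44485724 on the minus strand of mm9.

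Set against the targets on the same array, the Ihh ratio exceeded the mean ratio of Ptch1, Gli1 and Hhip by 1.22, 1.04, 1.63 and 1.76 on the arrays of replicates 1 to 4, averaging 1.41 ± 0.34 (SD, n = 4). The targets' own mean ratio was 0.38, 0.39, 0.47 and 0.28, a mean of 0.38 ± 0.076. The Shh ratio lay below the targets' mean on all 4 arrays, by a mean difference of -0.22 ± 0.12 (SD, n = 4; -0.071, -0.23, -0.22 and -0.37). Ihh exceeded Shh by 1.29, 1.27, 1.86 and 2.13, a mean of 1.64 ± 0.43. Of the 3 differences compared, each had the same sign on 4 of 4 arrays and an exact two-sided sign-flip p, raw and adjusted over the 3, equal to the smallest that 4 arrays allow, which is above 0.05. The array with the lowest Hhip and Shh ratios, replicate 4, was the one with the second highest Ihh ratio. Replicate 4 also had the highest Gli1 ratio (0.33), and replicate 3, with the highest Ihh ratio (2.10), had the highest Hhip ratio (0.75).

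**Figure D3:**
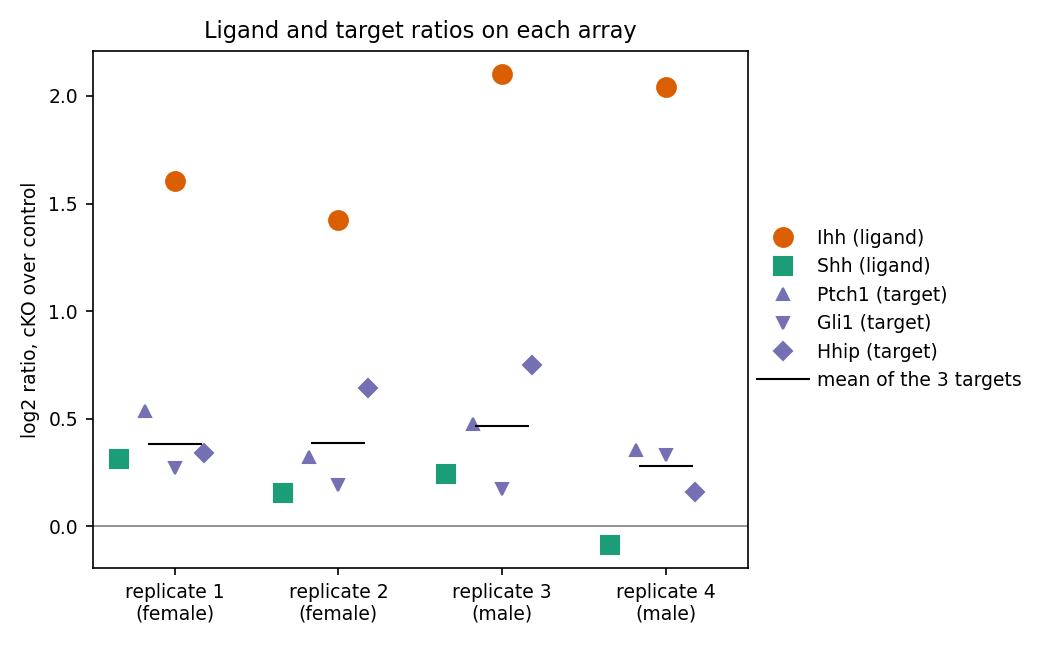
Log2 ratios of cKO over control (vertical axis) for the ligands Ihh and Shh and for the targets Ptch1, Gli1 and Hhip on each array, with a bar at the mean of the 3 targets. Ihh stands above the targets' mean on each array, by 1.04 to 1.76, and Shh below it. Symbols are shifted sideways for legibility.

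The pathway genes outside the 9 were taken from 4 lists by role, 35 genes in all, and all 35 were tested. None passed the test in either direction, where 1.19% of all genes did. By unadjusted limma p under 0.05, 4 were higher and 3 lower, as 3.73% and 4.31% of all genes were. Of the 7 genes of ligand release, the median log2 ratio was -0.11, and those with the smallest p were Scube1 (-0.32 ± 0.24, SD, n = 4, adjusted p = 0.222) and Scube2 (-0.26 ± 0.17, adjusted p = 0.427), secreted proteins that help ligand leave the cell. Dhh, the remaining Hedgehog ligand, averaged -0.17 ± 0.47. Without replicate 4, Dhh (-0.38, adjusted p = 0.0373) and Scube1 (-0.38, adjusted p = 0.0172) were called lower, in a fit that called 7.44% of all genes.

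Of the co-receptors and reception genes, Lrp2, an endocytic receptor that also binds Shh and is a marker of the proximal tubule, averaged 0.37 ± 0.32 (SD, n = 4, limma adjusted p = 0.201) and was called only without replicate 2 (0.46, adjusted p = 0.00995), where 4.35% of all genes were called. Gas1, a membrane co-receptor, averaged -0.17 ± 0.11. The 13 signal transduction genes, of the cilium and of Gli processing, had a median of -0.037 and ran from -0.13 (Evc, a protein of the cilium base) to 0.12, with Stk36, a kinase, at -0.11 ± 0.12.

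Of 10 mesenchymal targets, the median log2 ratio was 0.10. Foxf1, a forkhead factor of Hedgehog-receiving mesenchyme, had ratios of 0.20, 0.17, 0.72 and 0.71 (mean 0.45 ± 0.31, SD, n = 4, limma adjusted p = 0.302), above 0 on all 4 arrays, and its relative Foxf2 averaged 0.40 ± 0.27 (adjusted p = 0.278). Ccnd2, a cyclin, averaged -0.37 ± 0.14 (adjusted p = 0.141), and Bmp4, a growth factor of the ureteric mesenchyme, 0.088 ± 0.35. Without replicate 2, 4 of the 10 were called (Foxf1 0.59, Foxf2 0.50 and Foxl1 0.53 higher, Ccnd2 -0.43 lower), where 4.35% of all genes were called, against 1.19% with all arrays. Foxf1 was also called without replicate 1 (0.58, adjusted p = 0.0406), and Ccnd2 (-0.30) and Nr2f2 (0.36) without replicate 4, where 1.68% and 7.44% of all genes were called.

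**Figure D4:**
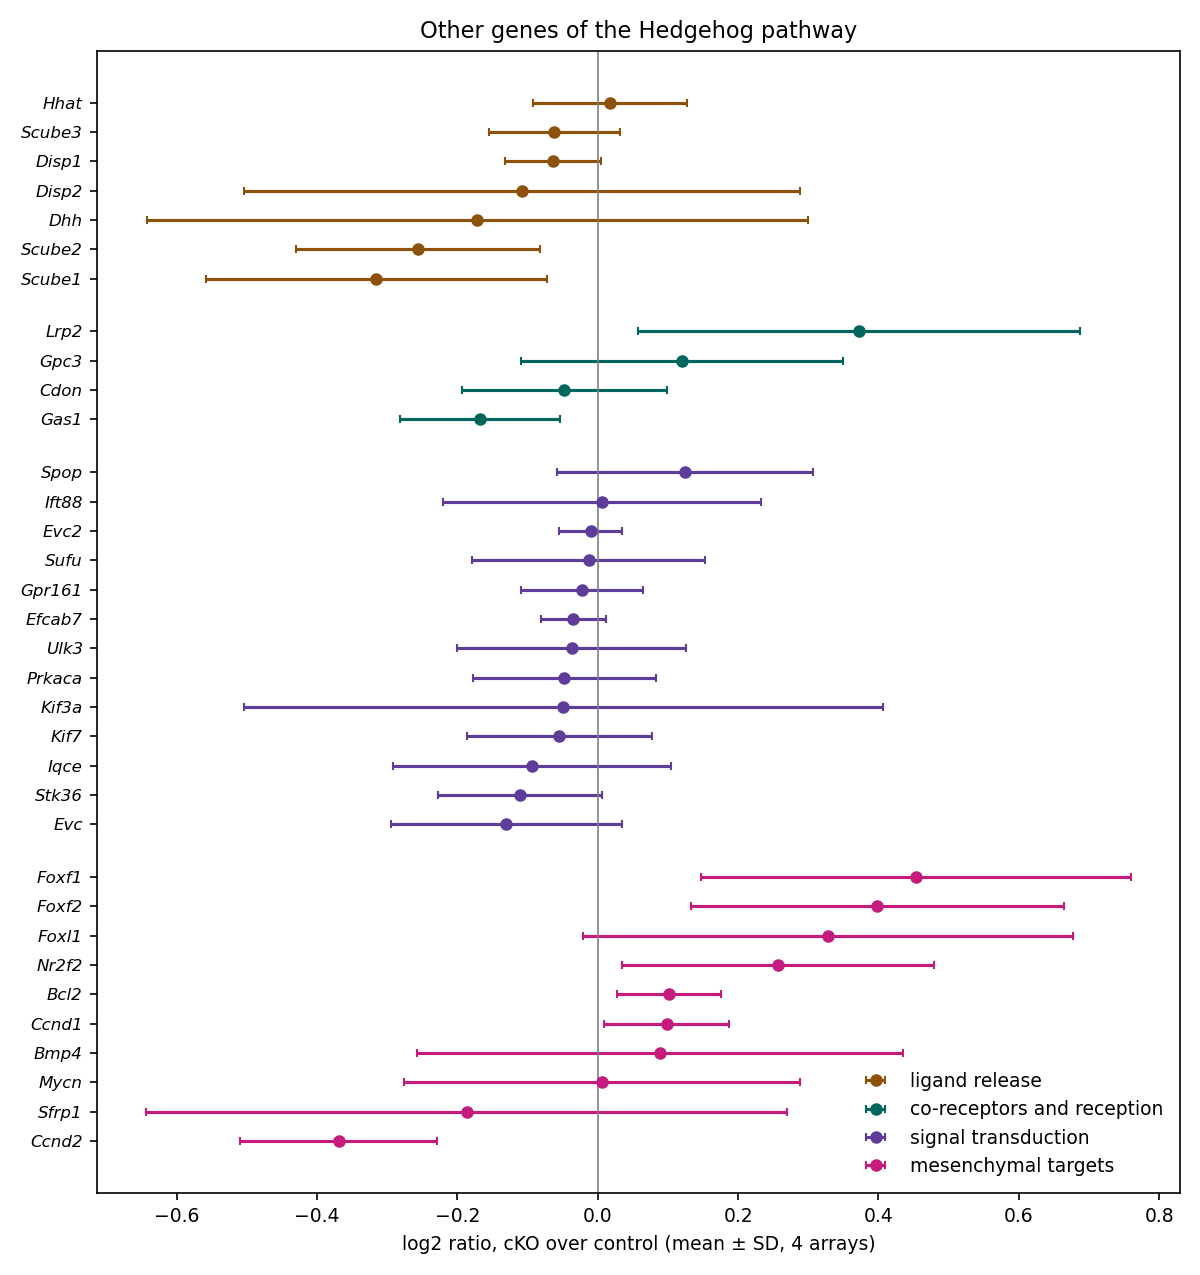
Mean log2 ratio of cKO over control with its SD over 4 arrays (horizontal axis) for 34 other Hedgehog pathway genes, grouped by role. The means run from -0.37 (Ccnd2) to 0.45 (Foxf1), and none of those plotted passed the test.

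Markers of cell types that a dissected ureter could hold were set beside these values, each list as the summed normalised intensity of its tested genes in an RNA, a sum that its brightest probes weigh most in. The 12 general epithelial markers summed to 456682 to 500952 in the control and 519326 to 549880 in the cKO RNAs. Of these 1 was called, Krt18 at 0.50 ± 0.14, and the median log2 ratio was -0.099. On all 4 arrays 3 of the 12 were above 0 and 4 below, as 7.69% and 7.65% of all genes were. The lowest mean was -0.91 (Cldn3). By unadjusted limma p under 0.05, 3 were higher and 4 lower. The sums of the 7 superficial urothelial markers overlapped between groups, with Krt20 called higher (1.92) and Upk2 (-0.54) and Grhl3 (-0.68) lower. Over all genes 0.497% were called higher and 0.697% lower. Of the ureteric mesenchyme list, 0 of 13 were called and its sums overlapped, and of the smooth muscle list 1 of 10, Ckm at -0.71, the creatine kinase of striated muscle.

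Epithelia outside the ureter, of the kidney and the gut among them, also make Ihh. Of 10 proximal tubule markers, 3 were called higher (Cubn 2.22, Ttr 1.59, Pdzk1 1.23), the median was -0.083, and the sums were 20468 to 28283 in control and 33455 to 35195 in cKO RNAs. These 3 were the only ones above 0 on all 4 arrays, Slc3a1 (-0.24) was below 0 on all 4, and the lowest mean was -0.38 (Slc22a6). Of 9 collecting duct markers tested, 2 were called higher (Tfcp2l1 1.01, Wnt9b 0.86), with sums of 17135 to 22412 against 25711 to 27995. Their median was 0.40, 6 were above 0 on all 4 arrays and 0 below, and the lowest mean was -0.27 (Ret). Of 8 gut epithelium markers tested, 2 were called higher (Fabp1 3.09, Lgals4 1.14), with sums of 3932 to 4689 against 9450 to 11337. Their median was 0.38, with 4 above 0 on all 4 arrays and 1, Apoa1 (-0.52), below 0 on all 4. Cdx2, which defines gut epithelium, was not well above background in any of the 8 RNAs. Of 6 cartilage markers, 0 were called, with sums of 70476 to 80280 against 76598 to 89361. The called genes are part of these sums. Over all genes 0.497% were called higher, and 7.69% were above 0 on all 4 arrays and 7.65% below. The part of these lists in the Ihh ratio was not tested.

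Of the remaining lists, none of the 7 nerve and Schwann, 6 endothelial or 6 leukocyte markers was called. The endothelial sums were 60901 to 66790 in control and 68589 to 72000 in cKO RNAs, and 1 of the 6 was above 0 on all 4 arrays. By unadjusted limma p under 0.05, 0 endothelial markers were higher or lower, and 0 leukocyte markers were higher and 3 lower. The share of all genes was 3.73% higher and 4.31% lower. In the male germ and Sertoli list, Prm1 alone was called (5.29) of 6 tested, and Amh and Tnp2 were not well above background in any of the 8 RNAs. Of 7 skeletal muscle markers, Myl1 (-0.78) was called, and 5 of the 7 were lower by unadjusted limma p under 0.05, as 4.31% of all genes were. The median was -0.35, and the sums were 32540 to 36352 in control and 24106 to 32048 in cKO RNAs.

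The genes most like Ihh over the 8 RNAs, by Pearson r of normalised log2 intensity, were Mucl3 (r = 0.989), Mtcl1 (r = 0.986) and Sema3b (r = 0.985). Those most like Ptch1 were Slc9a2 (0.980), Tmem117 (0.978) and Cyp4b1 (0.976), and those most like Shh were Setd6 (0.973), Ppip5k1 (0.964) and Gyg (0.964). RNAs of 1 array share their hybridisation, and the 3 values per gene were the highest of all tested genes, so they describe these RNAs only. The lists of Ihh and Ptch1 held no gene in common with each other or with the 9 Hedgehog genes. With only 3 genes per list out of all genes tested, this lack of overlap cannot tell whether the profiles differ. Whether the profiles of Ihh and Ptch1 differ was not tested.

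**Figure D5:**
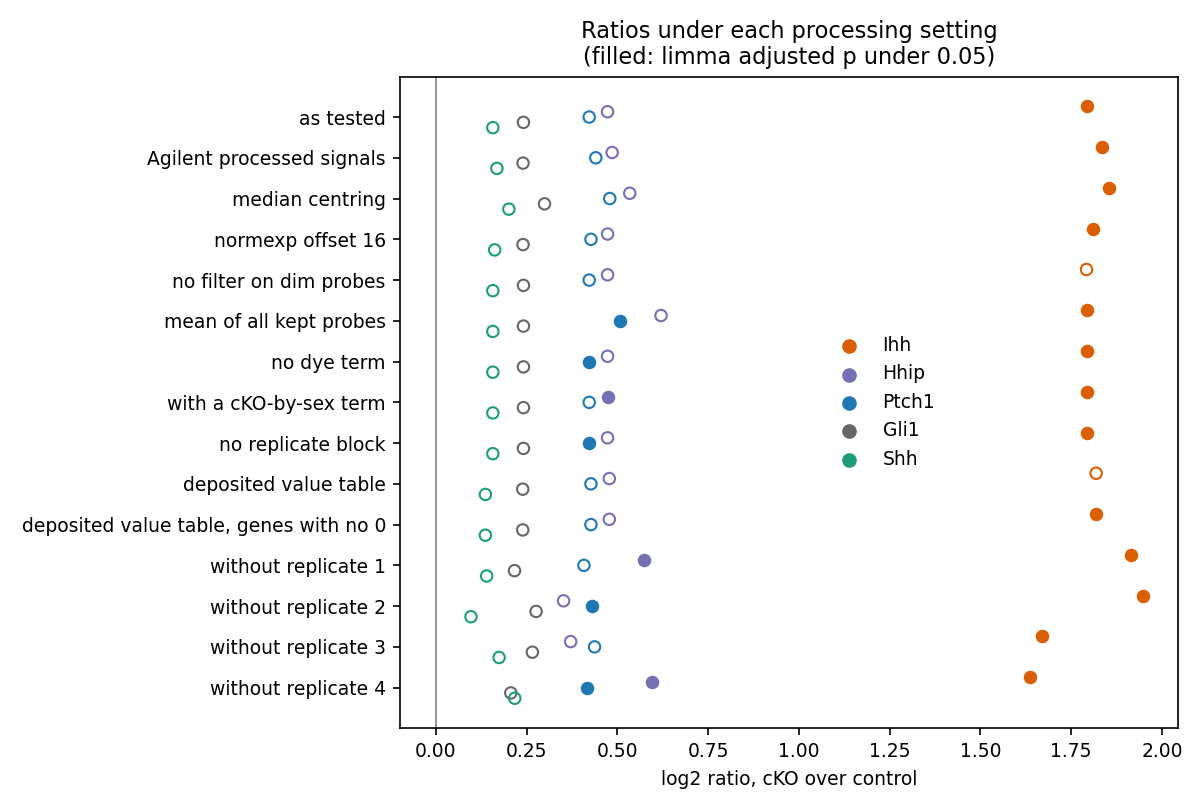
Log2 ratio of cKO over control (horizontal axis) for Ihh, Hhip, Ptch1, Gli1 and Shh under each processing setting (vertical axis), filled where the limma adjusted p is under 0.05. Ihh stays between 1.64 and 1.95, and the other 4 genes stay above 0 in each setting shown. Part of this was fixed beforehand. Ihh has 1 kept probe and stays at 1.79 where only the filter, the probes averaged or the terms of the fit change. With a replicate left out, ratios all above 0 cannot average below 0, which holds for each gene shown but Shh.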

How the data were processed

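The authors deposited scanner files that hold spot intensity values (mean signal and local background per channel, and processed signals) which Agilent Feature Extraction (version 10.7.3.1) wrote, as stated per the file headers. The same deposited files hold other values, flags for spots well above background, nonuniform or saturated. The authors also deposited a table of log2 ratios; set against the processed signals it gave cKO over control with the dye orientation turned, and 32.2% to 32.6% of its values are exactly 0, for which no reason is given in the sources used here. Per the labels' protocols, labelling used 200 ng of total RNA and a single T7 amplification. Probe coordinates are mm9, per the file headers.

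Background was corrected with normexp (offset 50), log2 ratios were normalised by loess (control spots had weight 0), and spots flagged as nonuniform, 17 to 33 per array, were left out. Each probe is the average of its 4 spots. It was kept where at least 0.5 of its spots were well above background on all 4 arrays in either RNA, and the brightest kept probe stands for its gene. Ratios entered limma (3.58.1, under R 4.3.3) with a coefficient for cKO and a dye intercept, and p-values adjusted by Benjamini-Hochberg over 21518 genes. Levels are channel values after loess and Aquantile. The array is the pair: deviations of its 2 RNAs from their group means correlated with r of 0.389, 0.108, 0.314 and -0.132. The number of arrays limits the precision.

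The Hedgehog genes and all lists were chosen with earlier results of these data known. Named are the 9 genes and Trp63, in each pathway list the 2 genes with the smallest p, and Dhh, Foxf1 and Bmp4. For Ihh, Shh and Ptch1 the 3 genes most like them are named. In each marker list the genes that passed the test are named, but of the basal urothelial markers, which all passed, only Krt5. Marker lists in which no gene passed have no tested gene named. Cldn3, Slc3a1, Slc22a6, Ret and Apoa1 are named for the lowest mean in their list or for ratios below 0 on all arrays. Foxl1, Nr2f2 and the defining markers at background were named after their values were seen. The leaving out of genes with a 0 in the deposited table, and the GC box and TATA box searches, were chosen after seeing the data. No genome was used. Results of some genes are not given.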

Additional observations from a re-analysis of the deposited data

Results flagged for a closer look

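In 65 groups of 4 values, 3 held 1 value far from the other 3 (chance gives about 1 in 20). The Boc log2 ratio was -0.032 in replicate 1 against -0.155 to -0.146 in the others, and without it the mean was -0.15, still not called. The Ccnd2 log2 ratio was -0.16 in replicate 2 against -0.46 to -0.42 in the others, and without that array Ccnd2 was called (-0.43, limma adjusted p = 0.0109). The Gli1 level in the cKO RNA of replicate 3 was 13.78 against 13.84 to 13.85 in the others, and it lay above all 4 control levels.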

How the results depend on the processing

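With no filter on dim probes Ihh kept its log2 ratio of 1.79 but had an adjusted p of 0.0598, 0 of the 9 genes were called higher, and 31 genes were called higher and 55 lower of all tested. In the deposited table with its zeros kept, as planned, Ihh was at 1.82 with an adjusted p of 0.271, 0 of the 9 were called, and 1 gene was called higher and 0 lower in all; 1085 genes are at 0 on all 4 arrays there. Leaving out the 1907 genes with a 0 on any array, chosen after seeing that, Ihh passed (adjusted p = 0.00118), 1 of the 9 was called, and 135 genes were higher and 198 lower. Members called higher numbered 2 with the mean of all kept probes, with no dye term, with a cKO-by-sex term and with no replicate block. Over all genes, 194 were higher and 266 lower with no dye term, 233 and 309 with the sex term, which also called 1 mesenchymal target, and 169 higher with no replicate block. With no replicate block Ptch1 was called (limma adjusted p = 0.0184), and the call of no other member changed. That fit takes the 8 RNAs as separate values, so it differs from the main one in more than the pairing. Ptch1 was also called with no dye term, where the pairing is kept. With each replicate left out, 1 to 3 members were called higher. Called in either direction were 0 to 2 genes of ligand release, 0 to 1 of reception and 0 to 4 mesenchymal targets. Over all genes, 128 to 749 were then higher and 155 to 853 lower. As 3 arrays leave 1 residual degree of freedom, these calls rest largely on the spread of other genes. Without replicate 1 or replicate 3 they rest wholly on it. Gli3 turned to 0.0067 with median centring, and ran from -0.16 to 0.066 with a replicate left out (0.014 without replicate 1); Smo turned to -0.022 with the mean of its probes and to -0.088 with its other probe. The causes were not tested. The 3 ligand and target differences kept their direction in each setting run. For 2 kinds of setting this was fixed beforehand. With a replicate left out, values all of 1 sign cannot average to the other sign. With no filter on dim probes, the values were the same ones. With 4 arrays the precision is limited by their number.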

Other observations

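The forkhead targets Foxf1, Foxf2 and Foxl1 had higher log2 ratios on the 2 male than on the 2 female arrays, as Ihh did. Foxf1 averaged 0.19 on the female and 0.72 on the male arrays (unadjusted limma p of the difference = 0.0499), Foxf2 0.19 and 0.60 (0.128) and Foxl1 0.068 and 0.59 (0.0542), each with an adjusted p of 1.00, so none passed the test. Ptch1 (0.43 and 0.42), Gli1 (0.23 and 0.25) and Hhip (0.49 and 0.45) had near-equal means in the sexes, and Dhh averaged -0.46 and 0.12 (unadjusted p = 0.0317, adjusted p = 1.00). These genes were singled out after their values were seen.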
